A study of Mus musculus with 15 samples.

Results

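Unloaded Trem2-/- BV2 cells (3 libraries) were compared with cholesterol-loaded WT BV2 cells (4 libraries), which are 7 of the 15 bulk RNA-seq libraries of the study and were taken by their genotype and treatment labels. The question was whether a Trem2-/- cell that has received no cholesterol resembles a loaded WT cell in its sterol, LXR, lysosome and cell cycle genes, and where the 2 differ. BV2 is an immortalized mouse microglial line. WT foamy cells had been given soluble cholesterol, complexed with methyl-beta-cyclodextrin, at 20 μg/ml overnight, and Trem2-/- non-foamy cells had been kept in medium alone. No cyclodextrin vehicle is stated for the non-foamy cells. The Trem2-/- cells were made by CRISPR in a clonal BV2 line that carries Cas9 and were expanded from single cells, so the lost gene cannot be told apart from the history of the clone. Genotype and cholesterol both differ between these 2 groups. WT non-foamy libraries (n = 4) are given beside them to show the level before loading, and Trem2-/- foamy libraries (n = 4) were kept for a comparison on separate libraries.

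Cells sense sterol through 2 arms. When sterol in the endoplasmic reticulum is plentiful, SCAP and the INSIG proteins hold back SREBP2, and the enzymes of cholesterol synthesis are transcribed less. Oxysterols and desmosterol meanwhile activate the LXR receptors, which bind DNA with RXR partners and turn on the efflux pumps *Abca1* and *Abcg1*. Trem2 is a lipid-binding receptor of microglia and macrophages that signals through the adaptor Tyrobp (DAP12), and cells that engulf lipid digest it in lysosomes.

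The 3 Trem2-/- non-foamy libraries held 37312009, 29416682 and 31337640 counted reads, and the 4 WT foamy libraries held 37288002, 39213324, 32736278 and 34188507. Levels are given as CPM, the count of a gene relative to the library total after TMM scaling, and log2 fold changes are Trem2-/- non-foamy minus WT foamy with a standard error (s.e.) from the edgeR fit, unless another pair is named. A gene was called at a Benjamini-Hochberg adjusted p under 0.05 over 14237 tested genes. The labels do not say that replicates came from separate cultures, so p-values measure the spread between libraries, which may be technical. Of all tested genes, 4658 (32.7%) were called, with 2149 (15.1%) higher and 2509 (17.6%) lower in Trem2-/- non-foamy cells. Higher calls were thus 46.1% of all calls, but 23.5% with total counts alone as the scale, which moved the median log2 fold change of all genes from -0.003 to -0.14. Most differences were small, since 500 genes (3.51%) were called with a difference of 1 log2 unit or more in either direction. For 5544 genes (38.9%) the 3 and 4 libraries did not overlap. For 6504 genes (45.7%) the 95% interval of the difference lay within 0.5 log2 units on either side of 0, which is described here as close.

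WT foamy replicate 1 stood somewhat apart from the other 3 of its group, with 13.6% of counts in ribosomal protein genes against 14.9% to 16.2%, and the Trem2-/- non-foamy libraries held 16.8% to 17.3%. Without WT foamy replicate 1, 2045 genes were higher and 2388 lower. WT non-foamy replicate 3 also stood apart, with 16.9% of counts in ribosomal protein genes against 13.75% to 14.01% in the rest of its group. List means relative to WT non-foamy libraries and the WT responses to loading include that library, and they were not recomputed without it. The part of ribosomal content in the results was not tested. Myeloid markers were present in all 7 libraries. Their summed level over 14 genes was 12064 to 12711 CPM in Trem2-/- non-foamy and 7441 to 8920 CPM in WT foamy libraries, with *Lyz2* (lysozyme, 32.8% of whose 31-base stretches occur in other genes) the most abundant in each, and of the 14 genes 9 were higher and 1 lower, beside the 15.1% and 17.6% of all tested genes. Markers of neurons, lymphocytes and epithelium summed to under 0.1 CPM in every one of the 7 libraries, and those of astrocytes and fibroblasts to under 1 CPM. Oligodendrocyte markers summed to 1.19 to 1.44 CPM against 1.74 to 2.57 CPM, most of it from 1 gene, and endothelial markers to 1.91 to 2.65 CPM against 4.64 to 8.79 CPM, nearly all of it *Kdr*. Whether other cell types take part in any result was not tested. In a bulk sample, fewer cells of a kind and less RNA per cell cannot be told apart.

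*Trem2* (chromosome 17, 48346401 to 48354147 in GRCm38) was counted at 232, 214 and 220 CPM in the Trem2-/- non-foamy libraries and at 337, 372, 400 and 383 CPM in the WT foamy libraries. The groups did not overlap, with a difference of -0.75 (s.e. 0.08, adjusted p = 1.66e-07). A transcript remained in the Trem2-/- line, and these counts do not measure the protein. Of the 8 genes of the receptor and its partners 3 were higher, 1 (*Trem2*) was lower and 4 were not called. Of all tested genes 15.1% were higher and 17.6% lower. *Tyrobp* was higher (0.43, s.e. 0.11, adjusted p = 0.00314), as was the sheddase *Adam17* at 0.31. *Syk*, the kinase that DAP12 recruits, was higher by 0.29 (0.15 and adjusted p = 0.335 with total counts alone).

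Sterol synthesis genes were lower in unloaded Trem2-/- cells than in loaded WT cells. Of 21 listed enzymes 20 were tested, all 20 had a negative log2 fold change, and 17 were called lower, against 17.6% of all tested genes. The median was -0.46, beside -0.003 over all genes. Loaded WT cells themselves had 16 of the 20 called lower than WT non-foamy cells (median -0.59, where 1.14% of all genes were called lower). Against WT non-foamy cells, which like them had received no cholesterol, all 20 were called lower in Trem2-/- non-foamy cells (median -0.999, where 22.6% of all genes were called lower). These comparisons share libraries, and their values are set side by side only. The mean over the 20 genes, as log2 CPM relative to the WT non-foamy mean, was -1.14, -1.12 and -1.06 in the 3 Trem2-/- non-foamy libraries and -0.55, -0.58, -0.58 and -0.48 in the 4 WT foamy libraries. It was -0.68 to -0.79 in Trem2-/- foamy libraries, which had also received cholesterol and lay between the other 2 groups.

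**Figure D1:**
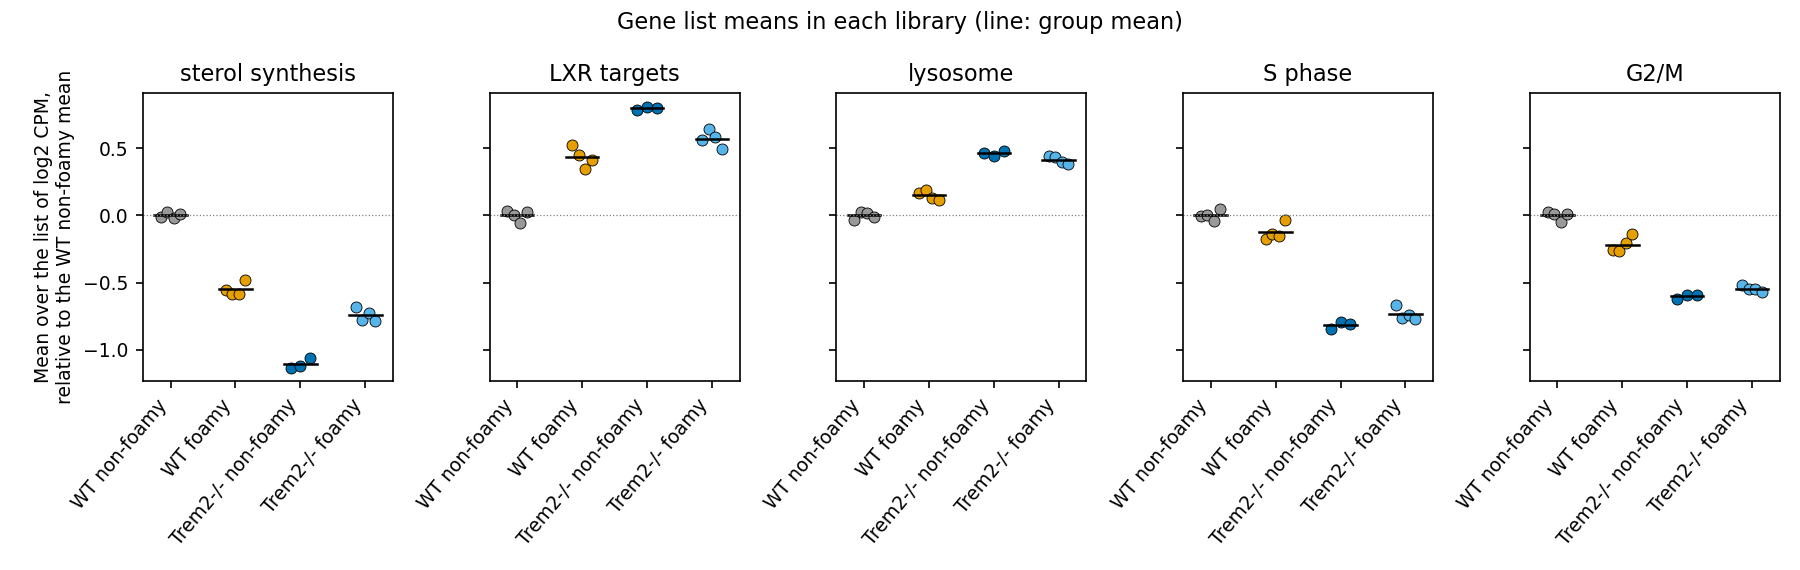
Mean log2 CPM over the genes of 5 lists, relative to the mean of the WT non-foamy libraries (y axis), in each of the 15 libraries by group (x axis), with points as libraries and lines as group means. The 3 Trem2-/- non-foamy libraries sit beyond all 4 WT foamy libraries in each panel, on the same side of 0; sterol synthesis means are -1.14 to -1.06 against -0.58 to -0.48.

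*Idi1* (chromosome 13, 8885501 to 8892451), which makes the isoprene units dimethylallyl and isopentenyl diphosphate interconvert, stood at 14.6, 13.9 and 12.1 CPM in Trem2-/- non-foamy and 24.1, 26.4, 29.7 and 28.1 CPM in WT foamy libraries. WT non-foamy libraries held 51.1 to 55.6 CPM, so the 3 groups formed separate steps. *Idi1* differed by -0.996 (s.e. 0.10, adjusted p = 1.3e-07). *Cyp51* (chromosome 5, 4081145 to 4104746), the lanosterol demethylase, stood at 41.0, 44.4 and 45.9 CPM against 74.6, 76.1, 78.1 and 83.5 CPM, with 130 to 140 CPM before loading. Again the groups did not overlap (-0.84, s.e. 0.06, adjusted p = 1.66e-09). *Hsd17b7*, a 3-ketosteroid reductase of the late pathway, was the one enzyme lower by more than 1 log2 unit, at 4.39, 6.78 and 5.23 CPM against 11.2, 10.6, 9.997 and 12.7 CPM (-1.03, s.e. 0.13, adjusted p = 2.31e-06).

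Before squalene, 8 of 9 genes were called lower, and after squalene 9 of 11, beside 17.6% of all tested genes. *Fdps*, which makes farnesyl diphosphate (-0.94), *Acat2*, which joins 2 acetyl-CoA (-0.87), and *Msmo1*, the methylsterol oxidase (-0.79), were lower with no overlap of the libraries. *Acat2* shares 43.7% and *Fdps* 27.9% of their 31-base stretches with transcripts of other genes, so their reads may be split between genes. *Fdft1*, squalene synthase (-0.38), and *Sqle*, squalene epoxidase (-0.32), were called with smaller differences. In loaded against unloaded WT cells these 2 genes were lower by -0.82 and -0.54. *Pmvk*, phosphomevalonate kinase, was not called at -0.09 (95% interval -0.23 to 0.05), nor were the late enzymes *Ebp* (-0.14, -0.34 to 0.07) and *Dhcr7* (-0.26, -0.49 to -0.03, adjusted p = 0.0786). *Dhcr7* was called without Trem2-/- non-foamy replicate 3 (adjusted p = 0.0454) or WT foamy replicate 3 (adjusted p = 0.0256) and with no filter on low counts (adjusted p = 0.0426), and with total counts alone all 3 were (-0.23, -0.27 and -0.40). For *Pmvk* the 7 libraries overlapped at 52.4 to 57.4 and 56.5 to 63.2 CPM, whereas WT non-foamy libraries held 71.6 to 82.4 CPM. *Mvd*, mevalonate decarboxylase, was called (-0.29, adjusted p = 0.0213) but not without Trem2-/- non-foamy replicate 1 (-0.29, adjusted p = 0.0626), without its replicate 2 (-0.19, adjusted p = 0.176) or without WT foamy replicate 1 (-0.24, adjusted p = 0.0634).

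**Figure D2:**
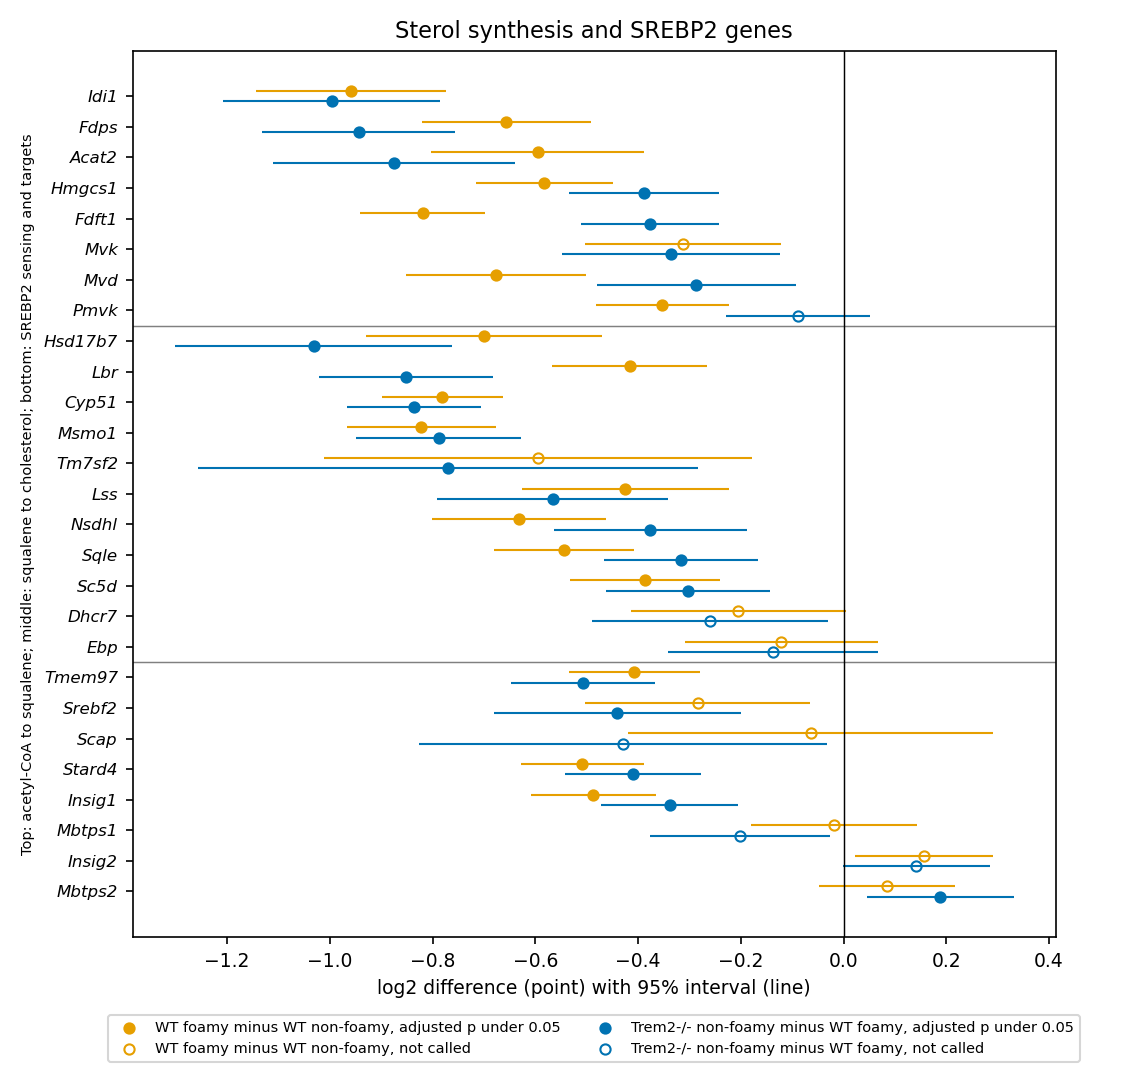
Log2 difference of each gene (x axis; points, with 95% intervals as lines) for Trem2-/- non-foamy minus WT foamy in blue and WT foamy minus WT non-foamy in orange, for 19 of the 20 tested synthesis genes and 8 of the 9 tested SREBP2 genes (y axis). Filled points passed an adjusted p of 0.05; all drawn synthesis genes lie left of 0 in blue, from -1.03 (*Hsd17b7*) to -0.09 (*Pmvk*).

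SREBP2 binds a sterol regulatory element, whose core was searched as TCACNCCAC on both strands of the 250 bases before each RefSeq start (GRCm38.p6). Of 16 tested synthesis genes with such a window, 1 held it (6.25%), against 1.22% of 9754 tested genes. That gene was *Hmgcs1*, the synthase of the mevalonate pathway, and its window is shown because it is the sterol promoter in which these letters were found (chr13:119690101-119690350, plus strand, capitals mark the match).
Hmgcs1: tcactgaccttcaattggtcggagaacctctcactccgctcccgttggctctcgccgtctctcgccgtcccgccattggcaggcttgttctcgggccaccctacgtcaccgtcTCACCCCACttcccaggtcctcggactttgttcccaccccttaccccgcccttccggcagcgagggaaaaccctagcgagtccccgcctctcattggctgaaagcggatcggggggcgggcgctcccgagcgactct
These 250 bases end before the annotated start of *Hmgcs1* (119690379). The gene stood at 43.5, 49.6 and 52.3 CPM in Trem2-/- non-foamy and 63.6, 61.4, 61.2 and 67.5 CPM in WT foamy libraries, with no overlap (-0.39, s.e. 0.07, adjusted p = 0.000185).

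Of 9 tested genes that sense sterol or answer to SREBP2, 5 were called lower and 1 higher (median -0.41), beside 17.6% and 15.1% of all tested genes. *Stard4*, a carrier of sterol between membranes, stood at 41.6, 46.0 and 39.3 CPM against 55.5, 53.7, 58.9 and 56.6 CPM (-0.41, s.e. 0.06, adjusted p = 3.36e-05), and at 78.2 to 81.9 CPM before loading. *Srebf2*, which encodes SREBP2, was lower by -0.44 (adjusted p = 0.00531), *Tmem97*, a sterol-regulated membrane protein, by -0.51 (25.6% of its 31-base stretches occur in other genes), and *Insig1*, which retains SREBP2, by -0.34. *Insig2* (0.14, adjusted p = 0.125) and *Scap* (-0.43, adjusted p = 0.0916) were not called, although *Scap* was called without Trem2-/- non-foamy replicate 3 (adjusted p = 0.0446) or WT foamy replicate 3 (adjusted p = 0.0378) and with no filter on low counts (adjusted p = 0.0166). *Mbtps2*, the site-2 protease that frees SREBP2, was called higher at 0.19 (adjusted p = 0.0393), with 31% of its stretches shared. That call was lost without Trem2-/- non-foamy replicate 1 or 2 (adjusted p = 0.111 and 0.177), without WT foamy replicate 1, 2 or 4 (adjusted p = 0.079, 0.0826 and 0.0543), with no filter on low counts (adjusted p = 0.109) and with total counts alone (0.05, adjusted p = 0.553).

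LXR target genes differed in both directions. All 10 tested targets were called, 7 higher and 3 lower, beside 15.1% and 17.6% of all tested genes. The receptors themselves differed little. *Nr1h2* (LXR beta, -0.04), *Nr1h3* (LXR alpha, 0.05) and *Rxrb* (0.16; adjusted p = 0.0886, but 0.049 without WT foamy replicate 1) were not called, all 4 receptor genes were close, and the call of *Rxra* (0.28, adjusted p = 0.0329) was lost without Trem2-/- non-foamy replicate 1 (adjusted p = 0.0753) or 3 (adjusted p = 0.199), without WT foamy replicate 2, 3 or 4 (adjusted p = 0.0633, 0.0813 and 0.0821) and with total counts alone (0.14, adjusted p = 0.425).

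*Abca1* (chromosome 4, 53030787 to 53159895), the pump that loads cholesterol onto apolipoprotein A-I, stood at 87.2, 78.4 and 82.4 CPM in Trem2-/- non-foamy and 74.6, 59.4, 53.8 and 55.0 CPM in WT foamy libraries. *Abcg1* (chromosome 17, 31057675 to 31117988), which exports cholesterol to HDL, stood at 97.8, 94.3 and 106 CPM against 83.2, 77.9, 60.3 and 66.9 CPM. For both genes WT foamy replicate 1 was the highest of its group and still under all 3 Trem2-/- non-foamy libraries. For *Abca1* the difference was 0.45 (s.e. 0.10, adjusted p = 0.00144), or 0.30 with total counts alone (adjusted p = 0.0911). For *Abcg1* it was 0.46 (s.e. 0.10, adjusted p = 0.00135), or 0.32 with total counts alone (adjusted p = 0.0791). In WT non-foamy libraries *Abca1* stood at 28.9 to 36.8 and *Abcg1* at 34.4 to 45.9 CPM. Trem2-/- cells without added cholesterol thus held more of both pump transcripts, on the TMM scale, than WT cells after overnight loading.

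*Apoe* (chromosome 7, 19696109 to 19699188), the main apolipoprotein of microglia, stood at 4050, 3846 and 4470 CPM against 2199, 2288, 2120 and 2189 CPM. The groups were far apart, at 0.91 on the log2 scale (s.e. 0.07, adjusted p = 3.9e-09). Its rise with loading in WT cells had been 0.31 (adjusted p = 0.0131). The neighbouring *Apoc1* was higher by 1.63 (s.e. 0.30, adjusted p = 0.000203) at low levels, 1.66 to 2.53 CPM against 0.604 to 0.916 CPM. *Mertk*, a receptor for dead cells (0.66), *Arl4c*, a small GTPase of sterol traffic (0.41), and *Mylip*, a ubiquitin ligase (0.39), were higher with no overlap. The 3 other targets went the other way. *Lpl* (chromosome 8, 68880491 to 68907448), lipoprotein lipase, stood at 1477, 1651 and 1497 CPM against 2016, 2187, 2160 and 2172 CPM (-0.47, s.e. 0.07, adjusted p = 7.84e-06), *Srebf1* was lower by -0.44 (adjusted p = 0.00594), and *Lpcat3*, a phospholipid acyltransferase, by -0.33 (adjusted p = 0.0112; 0.0842 without Trem2-/- non-foamy replicate 1). None of these 3 was called with loading in WT cells, at -0.03, 0.25 and 0.001, where 6 of the 10 targets were higher and none lower (1.66% of all genes were higher).

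**Figure D3:**
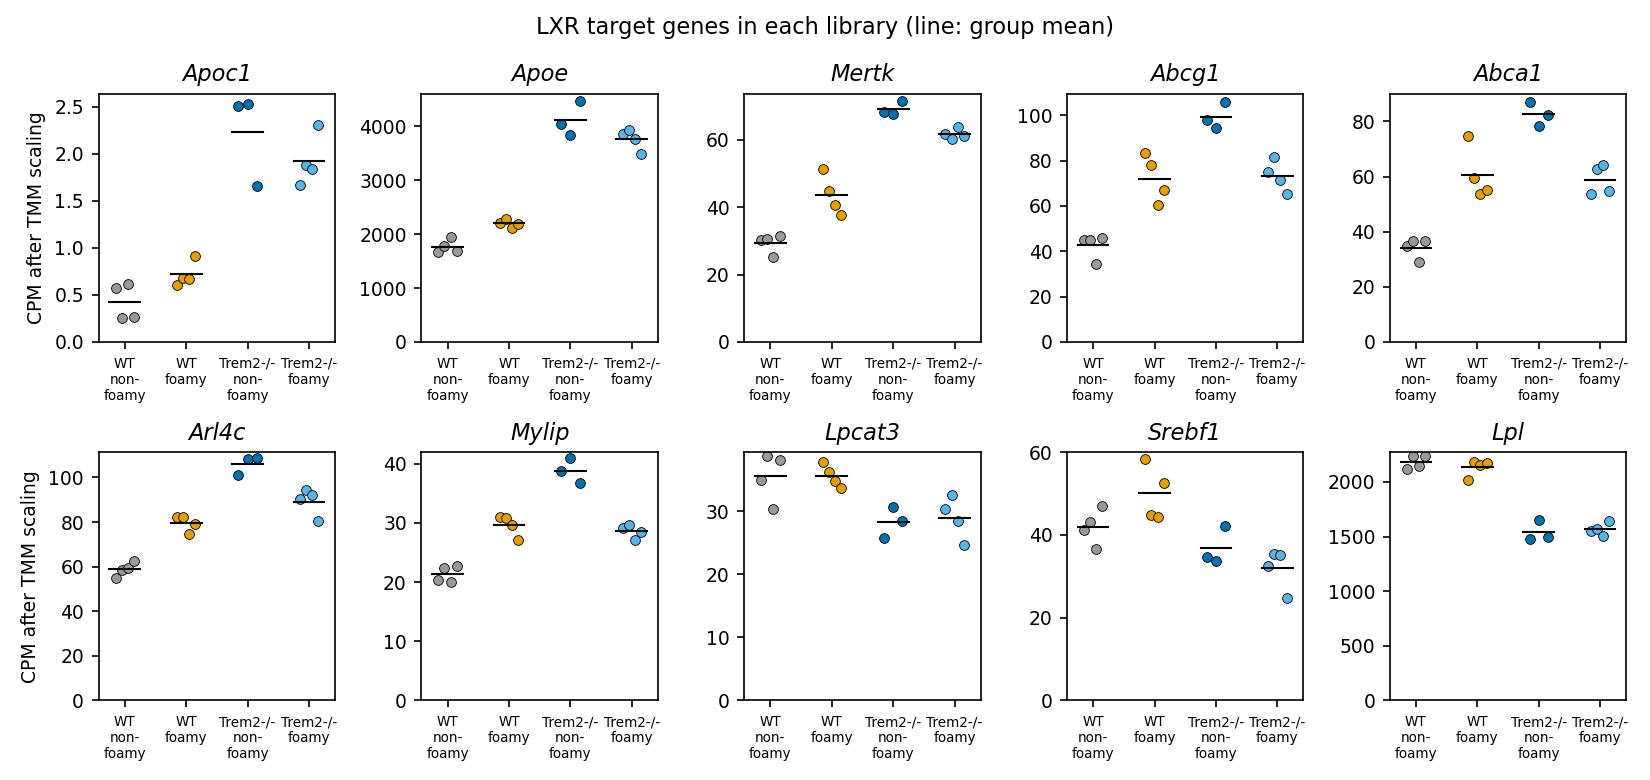
CPM after TMM scaling (y axis, from 0) of the 10 tested LXR target genes in each of the 15 libraries by group (x axis); points are libraries and lines are group means. In the first 7 panels the 3 Trem2-/- non-foamy libraries lie above all 4 WT foamy libraries, and for *Lpcat3*, *Srebf1* and *Lpl* they lie below, as with 1477 to 1651 CPM against 2016 to 2187 CPM for *Lpl*.

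Of 10 tested genes of sterol traffic inside the cell 6 were higher, beside 15.1% of all tested genes, and 1 was lower (*Gramd1b*, -0.37; adjusted p = 0.0545 without Trem2-/- non-foamy replicate 1 and 0.0593 without WT foamy replicate 1). *Npc2*, which hands cholesterol over inside the lysosome, stood at 2281, 2226 and 2219 CPM against 1213, 1366, 1416 and 1374 CPM (0.74, s.e. 0.08, adjusted p = 1.84e-07). Its membrane partner *Npc1* was higher by 0.45 (adjusted p = 0.00393), but not called with total counts alone (0.30, adjusted p = 0.104). *Lipa*, the acid lipase that frees cholesterol from its esters, was higher by 0.37. Of 10 tested lipid droplet and ester genes 4 were higher and 1 lower, beside 15.1% and 17.6% of all tested genes. *Soat1*, which esterifies cholesterol (0.43), *Nceh1*, an ester hydrolase (0.38), and *Pnpla2*, the triglyceride lipase (0.57), were higher, and *Dgat2*, which makes triglyceride, was lower (-0.36; adjusted p = 0.186 without Trem2-/- non-foamy replicate 2 and 0.104 without WT foamy replicate 1). *Plin2*, the coat protein of lipid droplets, was not called, at 205, 207 and 212 CPM against 170, 197, 194 and 189 CPM (0.15, 95% interval -0.003 to 0.30, adjusted p = 0.129). Its level in Trem2-/- foamy libraries was 292 to 328 CPM. Among 13 genes of PPAR signalling and fatty acid oxidation 5 were higher and 1 lower, beside 15.1% and 17.6% of all tested genes. *Fabp4*, a fatty acid carrier of macrophages, stood at 228, 222 and 208 CPM against 64.8, 80.6, 88.5 and 77.1 CPM (s.e. 0.09 on a log2 difference of 1.498). Fatty acid synthesis genes were lower in 5 of 9, beside 17.6% of all tested genes, with *Fasn*, fatty acid synthase, at -0.71 (adjusted p = 0.000251), *Elovl6* at -0.83 and *Acly* at -0.53. Of 8 tested uptake receptors 3 were called, a share (37.5%) near the 32.7% of all tested genes that were called. With 17.6% of all tested genes called lower, all 3 of these receptors were lower. Among them were *Msr1*, scavenger receptor A (-0.70), and *Scarb1*, the HDL receptor (-0.39), while *Cd36* was not called (0.25, adjusted p = 0.0619; 0.0197 without WT foamy replicate 4).

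Lysosomal genes were higher in unloaded Trem2-/- than in loaded WT cells. Of 75 genes, all tested, 49 were called higher and 3 lower, against 15.1% and 17.6% of all tested genes, with a median of 0.31. With total counts alone 36 were higher. Loading in WT cells had raised 12 and lowered none (median 0.15), where 1.66% of all tested genes were higher, and against WT non-foamy cells 55 were higher and 3 lower in Trem2-/- non-foamy cells, where 21% of all genes were higher. Of the 75, 40 were close. The list mean relative to WT non-foamy libraries was 0.46, 0.44 and 0.48 in Trem2-/- non-foamy and 0.16, 0.19, 0.13 and 0.11 in WT foamy libraries.

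Of 39 hydrolases 29 were higher and 1 lower (median 0.46), beside 15.1% and 17.6% of all tested genes. *Ctsf*, cathepsin F, stood at 45.6, 42.3 and 42.9 CPM against 24.5, 20.6, 21.4 and 17.9 CPM (1.05, s.e. 0.09, adjusted p = 1.27e-08). *Ctsk*, a collagen-degrading cathepsin, stood at 6496, 6245 and 5920 CPM against 3251, 3695, 3748 and 3398 CPM (0.82, s.e. 0.07, adjusted p = 2.46e-08). Neither gene's groups overlapped, and *Ctss* (0.87), *Ctsh* (0.87), *Psap*, the saposin precursor (0.77), and *Gm2a*, the GM2 activator (0.77), were higher in the same way. *Ctsc*, which activates serine proteases of granules, was the 1 hydrolase called lower (-0.21, adjusted p = 0.0353), and that call was lost without any 1 of the 3 Trem2-/- non-foamy libraries (adjusted p = 0.0765 to 0.0991) or without WT foamy replicate 2, 3 or 4 (adjusted p = 0.0538 to 0.104).

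Of 18 membrane proteins 8 were called, all higher (44.4%), and 83.3% of the 18 were close. Of all tested genes 32.7% were called and 15.1% were called higher. The 8 membrane proteins called included *Lamp1* (0.36) and *Lamp2* (0.45), the main coat proteins of the lysosome, and *Slc17a5*, the sialic acid exporter (0.65). Of 18 subunits and partners of the V-ATPase, the proton pump that acidifies the lysosome, 12 were higher and 2 lower, beside the same 15.1% and 17.6%. *Atp6v0d2*, an alternative d subunit of macrophages and osteoclasts, stood at 600, 620 and 569 CPM against 208, 253, 264 and 227 CPM (1.32, s.e. 0.09, adjusted p = 2.37e-10). *Atp6v1a*, the catalytic subunit, was higher by 0.50. The a subunit *Atp6v0a1* was lower at 25.9, 30.8 and 31.1 CPM against 50.5, 37.3, 39.7 and 43.0 CPM (-0.55, s.e. 0.13, adjusted p = 0.0023). Of the 3 MiT family factors that drive lysosomal genes, *Tfeb* was higher (0.50, adjusted p = 0.00039), *Mitf* was higher (0.39, adjusted p = 0.00183; 0.26 and 0.065 with total counts alone), and *Tfe3* was not called (-0.05).

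These factors bind the CLEAR element. Its core CACGTG, a palindrome, was present in the 250 bases before the start in 18 of 61 lysosomal genes with a window (29.5%), against 10% of all tested genes. The window of *Ctsf* is shown as that of the gene with the smallest p among them (chr19:4854915-4855129, plus strand, 215 bases up to the first annotated exon base, capitals mark CACGTG).
Ctsf: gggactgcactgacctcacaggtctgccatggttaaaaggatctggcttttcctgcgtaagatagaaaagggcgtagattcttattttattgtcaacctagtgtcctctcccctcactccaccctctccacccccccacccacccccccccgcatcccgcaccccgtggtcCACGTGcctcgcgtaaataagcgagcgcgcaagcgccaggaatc
A match of letters is a description of the window and no measurement of binding.

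Cell cycle genes were lower in unloaded Trem2-/- than in loaded WT cells. Of 97 S phase and G2/M genes, 86 were called lower and 1 higher, against 17.6% and 15.1% of all tested genes, with a median of -0.48. In WT cells loading had lowered 23 of the 97 (median -0.19), where 1.14% of all tested genes were lower. S phase genes differed more than G2/M genes, with 39 of 43 lower (median -0.73) and 47 of 54 lower (median -0.39). The S phase mean relative to WT non-foamy libraries was -0.85, -0.79 and -0.81 in Trem2-/- non-foamy and -0.18, -0.14, -0.15 and -0.03 in WT foamy libraries. Loaded WT cells therefore stood nearer to unloaded WT cells than to unloaded Trem2-/- cells on this list, unlike on the sterol list, where they lay about midway.

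*Rrm2* (chromosome 12, 24708241 to 24714146), the ribonucleotide reductase subunit that limits DNA building blocks, stood at 14.9, 13.8 and 12.7 CPM against 33.6, 35.5, 35.5 and 40.0 CPM (-1.38, s.e. 0.09, adjusted p = 1.24e-10). *Uhrf1*, which maintains DNA methylation at the fork (-1.33), and *Mcm5* of the replicative helicase (-1.19) were lower in the same way, although *Uhrf1* shares 24.2% of its 31-base stretches with other genes. Among G2/M genes *Lbr*, the lamin B receptor and also a sterol reductase (it stands in both lists), was lower by -0.85 (s.e. 0.08, adjusted p = 5.01e-08), *Gtse1* by -0.78 and *Aurkb*, the chromosomal passenger kinase, by -0.64. *Cenpa*, the centromeric histone, was the 1 gene called higher, at 70.6, 69.1 and 70.0 CPM against 58.4, 56.1, 60.7 and 64.8 CPM (0.22, adjusted p = 0.0118; 0.08 and 0.307 with total counts alone). *Nusap1* (-0.05; -0.19 and called with total counts alone) and *Ubr7* (0.07) were not called.

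**Figure D4:**
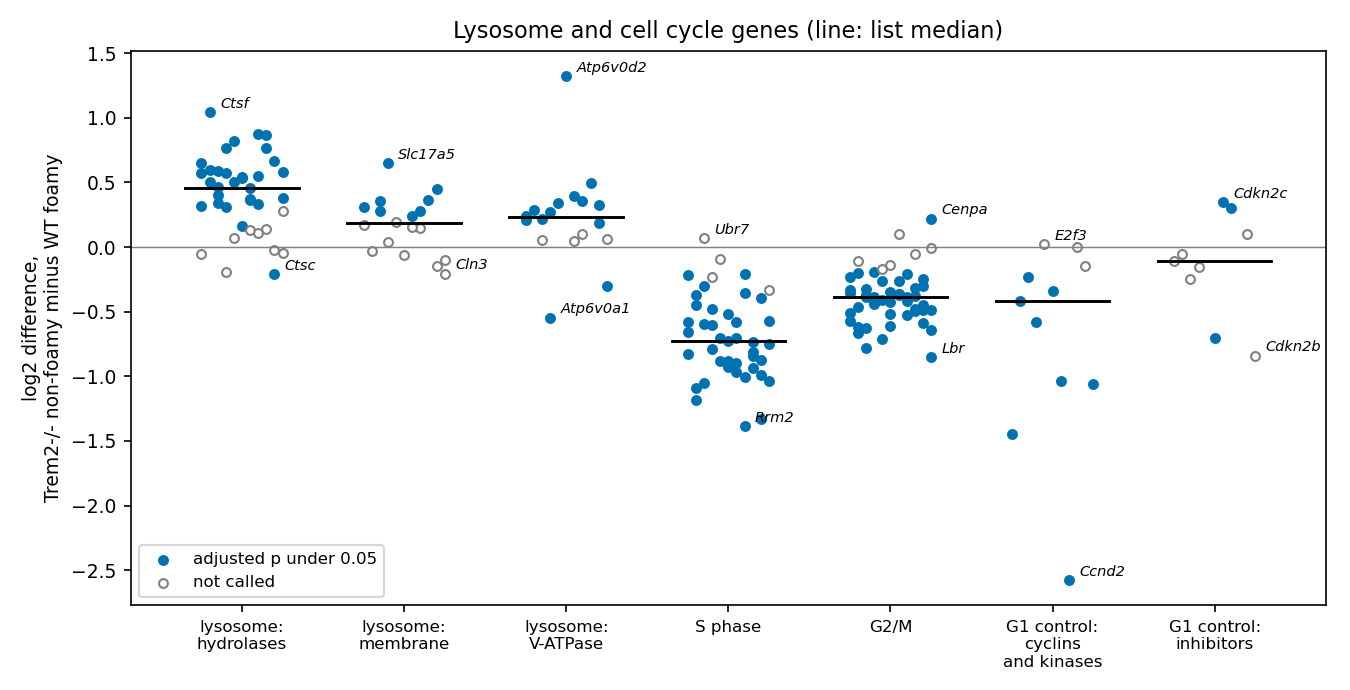
Log2 fold change of Trem2-/- non-foamy minus WT foamy (y axis) for each tested gene of 7 lists (x axis); filled points passed an adjusted p of 0.05, open points did not, and lines are list medians, with the highest and lowest gene of each list named. Hydrolases centre on 0.46 and S phase genes on -0.73, and *Ccnd2* is the lowest point at -2.58.

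Proliferation genes often carry short shared promoter letters, and these were counted in the same 250-base windows. The CCAAT box was present in 36 of 47 G2/M genes with a window (76.6%, against 40.5% of all tested genes), the CHR element TTTGAA in 20 of 47 (42.6% against 13.3%), and an E2F site (TTTCCCGC, TTTGGCGC or TTTCGCGC) in 10 of 31 S phase genes (32.3% against 3.53%), each on either strand. The *Lbr* window is shown as that of the matching G2/M gene with the smallest p (chr1:181842402-181842651, minus strand, outside annotated exons, capitals mark CCAAT and TTCAAA, the CHR element on the other strand).
Lbr: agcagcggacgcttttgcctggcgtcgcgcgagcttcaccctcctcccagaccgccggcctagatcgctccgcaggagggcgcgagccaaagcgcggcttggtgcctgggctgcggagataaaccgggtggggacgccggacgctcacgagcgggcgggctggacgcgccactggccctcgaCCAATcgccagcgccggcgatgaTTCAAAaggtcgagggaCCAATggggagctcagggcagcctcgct
It holds 3 matches, 2 of CCAAT and 1 of the CHR element. The window lies before the RefSeq start but within the GENCODE span of *Lbr* (181815335 to 181843046).

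Of 11 tested cyclins, kinases and E2F factors 8 were lower and none higher, beside 17.6% and 15.1% of all tested genes. *Ccnd2* (chromosome 6, 127125162 to 127152193), cyclin D2, stood at 6.38, 7.43 and 6.26 CPM against 42.6, 40.4, 37.4 and 39.0 CPM (-2.58, s.e. 0.12, adjusted p = 7.35e-13). *Ccnd1* stood at 11.9, 13 and 15.3 CPM against 40.0, 35.5, 32.6 and 37.5 CPM (-1.44, s.e. 0.12, adjusted p = 7.63e-09), and 23.4% of its exonic bases overlap a gene on the other strand. *Ccnd3* (-0.58), *Ccne1* (-1.06) and *E2f1* (-0.42) were lower, while *Cdk4* (-0.15, adjusted p = 0.0619; 0.0428 without WT foamy replicate 1, 0.0204 by DESeq2, and -0.28 and 0.000134 with total counts alone) and *E2f2* (0.001) were not called. Of 9 tested inhibitors of G1 progression 2 were higher, 1 lower and 6 not called, a share (33.3%) near the 32.7% of all tested genes that were called. *Cdkn1b* (p27) was higher by 0.31 (adjusted p = 0.00174; 0.17 and 0.104 with total counts alone). *Cdkn2c* (p18) was higher by 0.35 (adjusted p = 0.0227), a call lost without Trem2-/- non-foamy replicate 1 or 3 (adjusted p = 0.114 and 0.052), without WT foamy replicate 1 or 2 (adjusted p = 0.056 and 0.0801) and with total counts alone (0.21, adjusted p = 0.171). *Cdkn1a* (p21) was not called (-0.11, adjusted p = 0.276; -0.24 and 0.041 with total counts alone), and *Rbl1* (p107) was lower by -0.71.

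All 6 tested alternative activation genes were higher in Trem2-/- non-foamy cells, beside 15.1% of all tested genes, and the libraries of the 2 groups did not overlap for those named here. *Mrc1*, the mannose receptor, stood at 148, 146 and 153 CPM against 47.8, 47.7, 49 and 51.3 CPM (1.61, s.e. 0.06, adjusted p = 7.45e-15), and it was the 1 gene of the 6 that loading had raised (0.33, adjusted p = 0.00157). *Pdcd1lg2*, the checkpoint ligand PD-L2, was higher by 1.08, the lectin *Mgl2* by 0.78 (22.6% of its 31-base stretches occur in other genes) and the interleukin receptor *Il4ra* by 0.52. Of 11 tested classical activation genes 2 were higher, 3 lower and 6 not called, beside 15.1% and 17.6% of all tested genes called higher and lower. *Il1a* was higher (2.36, s.e. 0.17, 9.005 to 10.1 CPM against 1.64 to 1.99 CPM), *Ptgs2* was higher (0.64), and *Tnf* (-1.11), *Ccl2* (-1.67) and the inflammasome sensor *Nlrp3* (-0.95) were lower. Of 13 interferon response genes 2 were higher, *Rsad2* (1.005) and *Bst2* (0.35), and none lower, which is near the 15.1% of all tested genes called higher.

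Of 20 genes of disease-associated microglia, a state that in mouse brain depends in part on Trem2, 14 were higher and 3 lower, beside 15.1% and 17.6% of all tested genes. *Timp2* (0.98), *Gpnmb* (0.55) and *Lgals3* (0.49) were higher, *Spp1* was not called (0.08, 95% interval -0.08 to 0.25), and the chemokines *Ccl4* (-0.99) and *Ccl3* (-0.57) were lower with *Lpl*. Homeostatic microglial genes went both ways, with 4 of 11 higher and 3 lower (beside 15.1% and 17.6% of all tested genes). Higher ones included *Gpr34* (0.68) and *Csf1r* (0.39; 0.25 and adjusted p = 0.115 with total counts alone). Of the lower ones *Cx3cr1* (-1.75) and *P2ry13* (-0.82) were at or under 2.63 CPM in all 7 libraries, and the call of *P2ry13* was lost without Trem2-/- non-foamy replicate 1 or 3 (adjusted p = 0.106 and 0.0782) or WT foamy replicate 3 (adjusted p = 0.0522). *P2ry12* stood at 0.505 to 0.662 CPM against 1.29 to 2.08 CPM (-1.55, s.e. 0.30, adjusted p = 0.00039). Of 16 ER stress genes, set beside the same 15.1% and 17.6%, 4 were higher, with *Ddit3* (CHOP) at 0.67 and *Atf3* at 0.60, and 7 were lower, with the chaperone cofactor *Sdf2l1* at -0.84 and asparagine synthetase *Asns* at -0.65. *Hspa5* (BiP) was not called (-0.14, adjusted p = 0.0649; 0.0434 without WT foamy replicate 1, 0.00749 by DESeq2, and -0.28 and 0.000127 with total counts alone).

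The largest differences among genes of at least 5 CPM lay outside the sterol and LXR lists. Of the 15 largest increases 14 are given here. They included *H2-DMb1*, a peptide-loading chaperone of MHC class II (2.68), and *Acp5*, tartrate-resistant acid phosphatase (2.59). The first of these shares 31.4% of its 31-base stretches with other genes. *Selenop*, the secreted selenium carrier, stood at 929, 972 and 895 CPM against 217, 274, 294 and 278 CPM (1.81, s.e. 0.09, adjusted p = 5.41e-12). It was also raised by loading in WT cells (0.71, adjusted p = 4.92e-05), as were 7 others of the 14. *Vnn3* (2.36), *Selenbp2* (2.16), the ferroxidase *Cp* (2.12), *Gm6325* (1.98), the glutathione transferase *Mgst1* (1.84), *BC021767* (1.77), *Tspan10* (1.76), *Ms4a7* (1.65) and the lipid phosphatase *Plpp3* (1.60) complete the 14 with *Il1a* and *Mrc1*; the 7 others raised by loading were *Il1a*, *Mrc1*, *Gm6325*, *Mgst1*, *BC021767*, *Tspan10* and *Ms4a7* (0.33 to 1.04). *Selenbp2*, *BC021767* and *Gm6325* share 59.3%, 69.4% and 38.5% of such stretches with other genes, so their values are uncertain.

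Among called genes of at least 5 CPM with no overlap, the deepest decrease was *Tenm4*, a teneurin of the cell surface (chromosome 7, 96171246 to 96911093), at 0.228, 0.289 and 0.331 CPM against 18, 13.3, 11.5 and 10.4 CPM (-5.55, s.e. 0.37, adjusted p = 1.94e-10). *Tmem223*, a mitochondrial assembly factor, followed at 1.17, 1.12 and 2.05 CPM against 19.1, 19.1, 24.5 and 23.3 CPM (-3.89, s.e. 0.21). Both were at or under 2.05 CPM in all 7 Trem2-/- libraries, and neither was called between loaded and unloaded WT cells (0.33 and 0.02). Next came *Ccnd2*, *Lgals3bp* (-2.37), *Dmwd* (-2.24), the thymosin *Tmsb10* (-1.97), *Etv5*, an ETS factor induced by ERK (-1.80), *Cd93* (-1.80), *Trim26* (-1.75), the antigen-presenting *Mr1* (-1.74), the macrophage elastase *Mmp12* (-1.73), *Iqcg* (-1.69), *Pid1* (-1.65), *Rasal3* (-1.53) and *Slamf9* (-1.52). *Iqcg* overlaps a gene on the other strand over 48.1% of its exonic bases, and *Tmsb10*, *Etv5* and *Tmem223* share 32%, 30.3% and 21% of their 31-base stretches with other genes, so these values are uncertain too. Of these 15 genes *Ccnd2* was the 1 called in the WT response to loading (-0.41, adjusted p = 0.019).

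**Figure D5:**
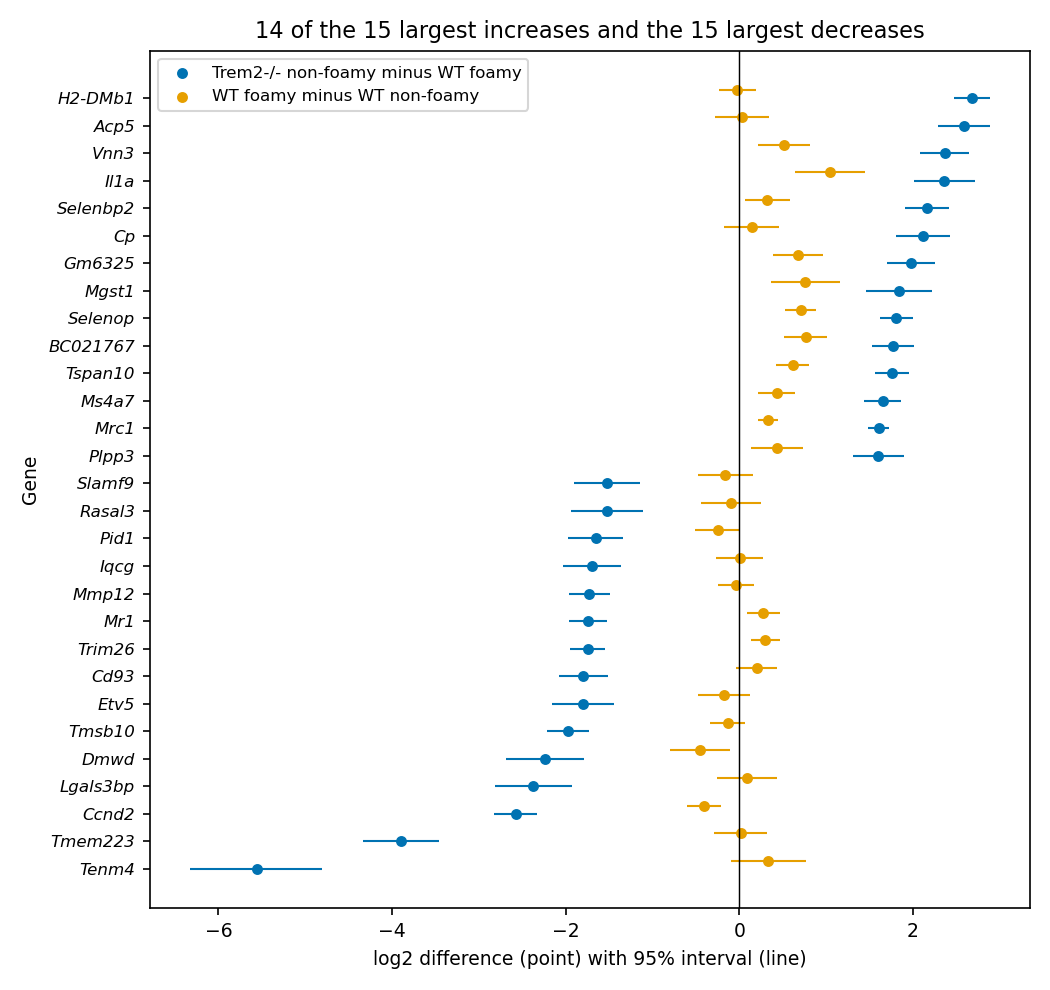
Log2 difference (x axis; points, with 95% intervals as lines) of 14 of the 15 largest increases and the 15 largest decreases among called genes of at least 5 CPM (y axis) for Trem2-/- non-foamy minus WT foamy in blue, with WT foamy minus WT non-foamy in orange. Blue points run from 2.68 (*H2-DMb1*) to -5.55 (*Tenm4*), and orange points stay between -0.45 and 1.04.

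Likeness was also described as the root mean square (RMS) difference in log2 CPM between pairs of libraries. Over all 14237 genes the median RMS between Trem2-/- non-foamy and WT foamy libraries was 0.651 (12 pairs), below that to WT non-foamy libraries (0.729) and above that within WT foamy (0.475, 6 pairs) or within Trem2-/- non-foamy libraries (0.475, 3 pairs). On sterol synthesis genes the same medians were 0.655 to WT foamy and 1.21 to WT non-foamy libraries. For LXR targets they were 0.725 and 1.16, for lysosomal genes 0.472 and 0.620, and for cell cycle genes 0.592 and 0.772. In each of these lists, unloaded Trem2-/- libraries were nearer to loaded than to unloaded WT libraries by these medians. The medians between loaded and unloaded WT libraries were smaller (0.618, 0.583, 0.230 and 0.264). On sterol synthesis genes the pairs overlapped, at 0.591 to 0.743 against 0.536 to 0.650 between loaded and unloaded WT libraries. On LXR targets they also overlapped (0.625 to 0.813 against 0.378 to 0.760). On lysosomal and cell cycle genes they did not overlap. Pairs share libraries, so no test was made.

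Trem2-/- foamy against WT non-foamy libraries share none with the main comparison and differ by the same genotype, with cholesterol on the other side. Of the 2149 genes higher in Trem2-/- non-foamy cells, 1881 were called higher and 0 called lower there, and of the 2509 lower genes 2206 were called lower and 2 called higher. The last 2, named after their values were seen, were *mt-Ty*, a mitochondrial tRNA, and *Rps27a-ps2*, a ribosomal protein pseudogene with all of its 31-base stretches in other genes, whose levels varied widely within groups (0.0489 to 12.2 and 9.69 to 37.1 CPM over the WT foamy libraries). The call of *mt-Ty* was lost without any 1 Trem2-/- non-foamy library or without WT foamy replicate 4 (adjusted p = 0.058 to 0.0878), and that of *Rps27a-ps2* without 5 of the 7 libraries, all but Trem2-/- non-foamy replicate 2 and WT foamy replicate 1 (adjusted p = 0.0507 to 0.229) and by DESeq2 (adjusted p = 0.119). In that comparison 6016 of all 14237 genes were called, and 83.4% of all genes had the same sign in both. Every one of the 17 sterol genes, the 10 LXR targets and the 30 largest differences kept its direction and was called again. Of 52 called lysosomal genes 48 were called the same way again, and of 87 called cell cycle genes 86. In WT cells loading alone had lowered 16 of 20 sterol genes and 23 of 97 cell cycle genes. It had raised 6 of 10 LXR targets and 12 of 75 lysosomal genes. Of all tested genes it had lowered 1.14% and raised 1.66%. Agreement on these 4 lists therefore cannot be told apart as an effect of genotype or of cholesterol. The sterol fold changes differed in size, with *Idi1* at -1.22 and *Cyp51* at -1.08 in the second comparison.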

How the data were processed

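RNA of 15 BV2 libraries was measured by bulk RNA-seq, and the authors deposited 1 table per library with raw counts of reads for 54390 genes. The authors, by their methods, ran Trimmomatic on the reads, used HISAT2 for alignment to GRCm38, and assigned reads to genes by featureCounts, all within CHURP; the submitters' processing notes name mm10. The strand setting and the treatment of reads with several matches are not given in the sources used here. No column of another series was present.

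All 15 libraries (23538963 to 41683825 counts) were scaled by TMM (0.918 to 1.11), filtered with filterByExpr (minimum count 10) and fitted with 1 mean per group by the quasi-likelihood test of edgeR (version 4.0.16, R version 4.3.3); 14237 genes were tested and the biological coefficient of variation was 10.2%. Library means for lists used log2 CPM with a prior count of 2. The members and lists were chosen with earlier results of these data known. S phase and G2/M lists are those in common use and other lists were written from general knowledge. Named genes were *Trem2*, list members, genes the study names, and the 15 largest increases and decreases among called genes that averaged 5 CPM or more and had no overlap of libraries. Some genes are not reported here. Gene positions, exonic overlaps and shared 31-base stretches are from GENCODE M21 for GRCm38, and promoter windows are from RefSeq (GRCm38.p6). The procedure was checked on simulated data with known differences. Alternatives were DESeq2 1.42.0, RLE factors, scaling by total counts alone, omission of the low-count filter, a minimum of 10 counts in all 7 libraries, a fit of the 7 libraries alone, a replicate block, a fold minimum of 1 log2 unit, and omission of each of the 7 libraries in turn. Counting intervals would cover counting error only, and no 2 replicates were as alike as counting noise allows (chi-square per gene 5.95 to 45.4).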

Additional observations from a re-analysis of the deposited data

Results flagged for a closer look

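The level of each named gene and of the main lists was examined within the 4 WT foamy libraries, and 8 of 153 such sets of 4 held a library that stood apart from the other 3 by Dixon's test (95% critical value for 4 samples). Chance flags about 1 in 20, or 7.65 of 153. Replicate 1 was the low library for *Lpl* (2016 CPM, others 2160 to 2187), *Cdk4* (304 CPM, others 319 to 322), *Tmsb10* (80.9 CPM, others 93.8 to 94.3), *Slamf9* (5.89 CPM, others 7.63 to 7.87) and *Hspa5* (663 CPM, others 699 to 703). Replicate 2 was the high library for *Lipa* (268 CPM, others 246 to 248) and *Tspan10* (13.5 CPM, others 12.4 to 12.5), and replicate 3 the low library for *Cdkn1a* (52.5 CPM, others 56.2 to 56.6). Without replicate 1, the fold changes of *Lpl*, *Tmsb10* and *Slamf9* kept their direction and call. *Cdk4* and *Hspa5*, which were not called with all libraries, were called lower without it.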

How the results depend on the processing

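With total counts alone, 1169 genes were higher and 3795 lower, with 20 sterol synthesis genes lower, 5 LXR targets higher, 36 lysosomal genes higher and 92 cell cycle genes lower. A minimum absolute log2 fold change of 1 left 246 genes higher and 254 lower, 1 sterol synthesis gene, 1 LXR target, 2 lysosomal genes and 7 cell cycle genes. In all other alternatives the 6 counts (all higher, all lower, sterol, LXR, lysosome, cell cycle) stayed within 1.5 times of the values reported, with 17 to 18 sterol genes, 7 LXR targets, 47 to 49 lysosomal genes and 82 to 86 cell cycle genes when every library was kept. Leaving out 1 library gave 1649 to 2101 genes higher and 1925 to 2394 lower, 14 to 18 sterol genes, 7 LXR targets, 43 to 50 lysosomal genes and 80 to 87 cell cycle genes. Of 147 genes named in the text, 118 kept their call in every alternative other than the fold minimum, 29 lost or gained it in at least 1, and none turned direction with a call. A replicate block gave 2026 genes higher and 2293 lower, and of the 147 genes it lost the calls of *Rxra* (adjusted p = 0.0746), *Ctsc* (0.0673), *Rps27a-ps2* (0.155) and *mt-Ty* (0.08) and gained that of *Cd36* (0.0461). Same-numbered libraries of the 2 groups deviated together with correlations of 0.02, 0.04 and -0.03. Trem2-/- non-foamy replicates 1 and 2 correlated best with their own number and replicate 3 did not. Values this near 0 do not settle whether the numbers pair the libraries, and the labels do not say. A gene that was not called is not shown to be equal at this depth and number of libraries.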
